A study of Mus musculus with 7 samples.

Results

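The genes described here encode the neurofilaments and the axonal microtubules of neurons. They are the neurofilament subunits *Nefl*, *Nefm*, *Nefh* and *Ina*, the microtubule-associated proteins *Mapt*, *Map1a*, *Map1b* and *Map2*, and the beta-tubulins *Tubb3* and *Tubb2a*. These 10 genes were taken by their GENCODE M21 symbols from the 55487 genes of the count matrix, and all 10 were among the 18449 genes that passed the filter on low counts. The series holds RNA-seq of cervical spinal cords of mice aged 8 weeks. Libraries came from 4 *Neat1*-KO; hSOD1G93A mice, which lack the long non-coding RNA *Neat1*, and from 3 *Neat1*-WT; hSOD1G93A mice, which carry the wild-type *Neat1* gene. Both groups carried hSOD1G93A, a hemizygous transgene of human SOD1 with a mutation that causes familial amyotrophic lateral sclerosis (ALS), so every difference below is between *Neat1* genotypes on a hSOD1G93A background, and no mice without the transgene entered the comparison. The replicates are called KO 1 to 4 and WT 2 to 4, after the labels.

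Neurofilaments are the intermediate filaments of neurons. Their light, medium and heavy subunits (*Nefl*, *Nefm* and *Nefh*, together the neurofilament triplet) and alpha-internexin (*Ina*) assemble into long polymers that set the calibre of large myelinated axons, and they are abundant in motor neurons. Microtubules run beside them as the tracks of axonal transport, built from alpha- and beta-tubulin and stabilised and spaced by microtubule-associated proteins. Neurofilaments accumulate in motor neurons and axons in ALS, and neurofilament protein released from damaged axons is used as a blood and cerebrospinal fluid marker of the disease.

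None of the 10 genes differed between the genotypes by the thresholds of the study, which asks for an adjusted p below 0.1 together with a log2 fold change beyond 0.58 in size. In edgeR 0 of 10 genes were called, beside 6 of the 18449 genes tested (0.0325%), and 0 of the 10 had an unadjusted p under 0.05, beside 4.64% of all genes. DESeq2 and limma-voom also called 0 of the 10. In *Neat1*-KO; hSOD1G93A mice 8 of the 10 genes had a log2 fold change below 0, beside 48.2% of all genes tested, with a median of −0.054 beside 0.0062 for all genes. No gene of the 10 had libraries that separated the genotypes, which 5.47% of all genes did, and their exact two-sided permutation p ran from 0.2 to 1. The log2 fold changes ran from −0.14 for *Nefl* to 0.021 for *Ina*, and every 95% interval excluded the study's threshold in both directions. *Neat1* itself, which checks the labels, measured 5.09, 5.40, 5.52 and 4.04 CPM (counts relative to library size, scaled by TMM) in KO 1 to 4 and 86.2, 80.5 and 118.4 CPM in WT 2 to 4, a log2 fold change of −4.25 (SE 0.15) with an adjusted p of 1.52e-08 in edgeR.

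Total counts ranged from 19661878 to 26031517 per library, and *Tubb2a*, the lowest of the 10 by CPM, had between 5380 and 7745 counts in each. The biological coefficient of variation over all genes was 12.8%, and the half-width of the 95% interval of a log2 fold change ran from 0.153 for *Mapt* to 0.192 for *Tubb3*. RNA came from whole tissue, in which fewer cells of a type and less RNA per cell cannot be told apart. The summed levels of 8 neuronal markers overlapped between the genotypes (5241 to 5623 CPM in the *Neat1*-KO and 5090 to 5542 CPM in the *Neat1*-WT libraries).

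The neurofilament triplet ranked among the most abundant messages of the cord. By mean CPM, *Nefm* was 7th, *Nefl* 15th and *Nefh* 33rd of the 18449 genes tested, *Map1a* 26th and *Map1b* 36th. The 10 genes together held between 1.457% and 1.641% of all counts of a library. Transcripts of these genes differ widely in length, and ranks by CPM favour long ones. Levels of the 10 genes were therefore also compared as CPM per kilobase of exon. On that scale *Nefl* was highest with a mean of 889.8 (range 784.9 to 1029.7 over the 7 libraries), followed by *Nefm* with 780.7 (range 714.0 to 860.0) and *Nefh* with 446.3 (range 391.9 to 487.3). *Tubb3* came next at 300.8 (range 273.1 to 348.9), and each of these 4 genes lay above the next in 7 of 7 libraries.

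Below them the order per length was less sharp. *Tubb2a*, at a mean of 182.5, lay above *Map1a*, at 154.7, in 6 of 7 libraries. *Ina*, at 112.5, lay above *Map1b*, at 101.2, in 5 of 7, and *Mapt*, at 56.9, above *Map2*, at 54.8, in 5 of 7. These 3 neighbouring pairs therefore overlapped between libraries. The exon length used here is the union over all annotated transcripts of a gene. These are 12 for *Mapt*, 24 for *Map2* and 2 for *Nefm*, and the gene counts do not separate isoforms. By counts *Nefm* lay above *Nefl* in every library (1.429 to 1.586 counts per count). Their order per length thus rests on the exon lengths used, 5782 bases for *Nefm* and 3380 for *Nefl*.

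**Figure D1:**
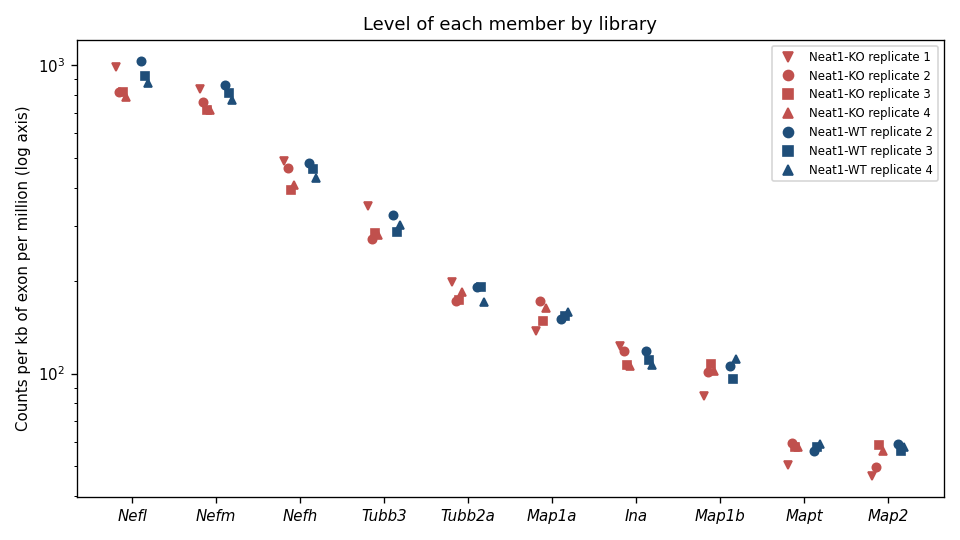
Level of each of the 10 genes in CPM per kilobase of exon (log axis), ordered by mean, with 1 point for each of the 4 *Neat1*-KO (red) and 3 *Neat1*-WT (blue) libraries. The levels span from a mean of 889.8 for *Nefl* to 54.8 for *Map2*, and the genotypes overlap for every gene.

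*Nefl* encodes the light subunit, the core on which the other subunits assemble. It lies at chr14:68083863-68089095 (mm10, plus strand). In the *Neat1*-KO libraries it measured 3327, 2768, 2770.3 and 2653 CPM, and in the *Neat1*-WT libraries 3480.5, 3109 and 2946 CPM. KO 2, KO 3 and KO 4 lay below every *Neat1*-WT library, whereas KO 1 lay above WT 3 and WT 4, so the genotypes overlapped. Mean *Nefl* was 2879 ± 303 CPM (SD, n = 4) in the *Neat1*-KO and 3179 ± 274 CPM (SD, n = 3) in the *Neat1*-WT libraries. Its log2 fold change was −0.14 (SE 0.088, 95% interval −0.33 to 0.047), with an adjusted p of 0.992 in edgeR. The exact two-sided permutation test gave p = 0.257, where the smallest p that 4 against 3 libraries allow is 0.0286.

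*Nefm* encodes the medium subunit. It measured 4848, 4388, 4128 and 4130.2 CPM in the *Neat1*-KO libraries and 4972, 4679 and 4454 CPM in the *Neat1*-WT libraries. The picture was that of *Nefl*: KO 2, KO 3 and KO 4 lay below all *Neat1*-WT libraries and KO 1 stood among the highest. The log2 fold change was −0.10 (SE 0.075, 95% interval −0.27 to 0.057), with an adjusted p of 0.992 in edgeR and an exact permutation p of 0.2. *Nefl* and *Nefm* lie on opposite strands of chromosome 14. In the annotation *Nefm* spans chr14:68082590-68124846 (mm10), and *Nefl* lies within that span. There 1108 exonic bases belong to both, which is 32.78% of those of *Nefl* and 19.16% of those of *Nefm*. The library kit keeps the strand, but the strand setting of the counting is not given in the sources used here. Without strand, reads from these bases cannot be told apart.

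*Nefh* encodes the heavy subunit, whose long tail projects from the filament. The tails of *Nefm* and *Nefh* carry Lys-Ser-Pro repeats, the sites of the heavy phosphorylation that is typical of axonal neurofilaments. Translated from the annotated coding sequences, *Nefh* held 51 Lys-Ser-Pro motifs in 1090 codons and *Nefm* 4 in 848 codons, while *Nefl* (543 codons) and *Ina* (501 codons) held 0. To show what sets the heavy and medium tails apart, 90 coding bases from each tail (30 codons, starting in frame) are printed 5′ to 3′. The codons of Lys-Ser-Pro are in capitals. Each window was picked as the first within an exon that holds the most motifs of that gene. The *Nefm* window lies at chr14:68121063-68121152 and the *Nefh* window at chr11:4940974-4941063 (mm10, both on the minus strand).
*Nefm*: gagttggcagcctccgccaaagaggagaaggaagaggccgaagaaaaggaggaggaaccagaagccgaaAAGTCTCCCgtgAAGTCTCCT
*Nefh*: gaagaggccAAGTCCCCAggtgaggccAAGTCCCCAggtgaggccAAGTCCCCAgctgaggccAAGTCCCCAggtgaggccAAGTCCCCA

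In these windows, picked for the most motifs, the motif occurs 5 times in *Nefh*, spaced by near-identical codons, and 2 times in *Nefm*. *Nefh* measured 1946, 1847, 1565 and 1631 CPM in the *Neat1*-KO libraries and 1927, 1842 and 1721 CPM in the *Neat1*-WT libraries. KO 1 was the highest of all 7 libraries and KO 2 lay above WT 3 and WT 4, so the overlap was wider than for *Nefl* and *Nefm*. The log2 fold change was −0.067 (SE 0.083, 95% interval −0.25 to 0.11), with an adjusted p of 0.992 in edgeR.

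*Ina* encodes alpha-internexin, the subunit expressed early in neuronal development and kept in adult central neurons. It measured 397.0, 382.9, 344.9 and 342.8 CPM in the *Neat1*-KO and 382.2, 357.8 and 344.4 CPM in the *Neat1*-WT libraries. The libraries of the genotypes were intermingled over the whole range. Its log2 fold change was 0.021 (SE 0.074, 95% interval −0.14 to 0.18), with an adjusted p of 0.996 in edgeR.

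Ratios between subunits within a library do not depend on library size and were compared for 6 pairs of genes. *Ina* relative to *Nefl* was 0.1193, 0.1383, 0.1245 and 0.1292 counts per count in the *Neat1*-KO libraries and 0.1098, 0.1151 and 0.1169 in the *Neat1*-WT libraries. All 4 *Neat1*-KO libraries lay above all 3 *Neat1*-WT libraries, with a difference of the mean log2 ratio of 0.165. The exact two-sided permutation test gave p = 0.0571, and p = 0.343 after Benjamini-Hochberg adjustment over the 6 ratios, so the difference did not pass. The ratio of *Nefm* to *Nefl* ran from 1.457 to 1.586 in the *Neat1*-KO and from 1.429 to 1.512 in the *Neat1*-WT libraries. For *Nefh* to *Nefl* the ranges were 0.565 to 0.667 and 0.554 to 0.593. Both pairs of ranges overlapped, with exact permutation p of 0.371 and 0.314.

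*Map1a* and *Map1b* encode large microtubule-associated proteins. *Map1b* is prominent in growing axons, and *Map1a* rises as neurons mature. *Map1a* measured 1671, 2089, 1800.0 and 1989 CPM in the *Neat1*-KO and 1821, 1873 and 1932 CPM in the *Neat1*-WT libraries. The *Neat1*-KO libraries were both the highest and the lowest, and the *Neat1*-WT libraries lay between them. Its log2 fold change was 0.0091 (SE 0.079, 95% interval −0.16 to 0.18), with an adjusted p of 0.997 in edgeR.

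For *Map1b* the levels were 1338, 1602, 1699 and 1615 CPM in the *Neat1*-KO and 1673, 1527 and 1771 CPM in the *Neat1*-WT libraries. KO 1 was the lowest library and the other *Neat1*-KO libraries lay within the *Neat1*-WT range. The log2 fold change was −0.083 (SE 0.086, 95% interval −0.27 to 0.10), with an adjusted p of 0.992 in edgeR. Relative to *Map1a*, *Map1b* counts ran from 0.767 to 0.944 in the *Neat1*-KO and from 0.815 to 0.918 in the *Neat1*-WT libraries, with an exact permutation p of 0.343.

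*Map2* encodes the microtubule-associated protein of dendrites and cell bodies, and *Mapt* encodes tau, its axonal relative. *Map2* measured 763.7, 819.3, 962.6 and 920.7 CPM in the *Neat1*-KO and 971.8, 924.4 and 950.9 CPM in the *Neat1*-WT libraries. KO 1, KO 2 and KO 4 lay below every *Neat1*-WT library, and KO 3 lay among them. Mean *Map2* was 867 ± 91.3 CPM (SD, n = 4) in the *Neat1*-KO and 949 ± 23.7 CPM (SD, n = 3) in the *Neat1*-WT libraries. The log2 fold change was −0.13 (SE 0.081, 95% interval −0.31 to 0.045), with an adjusted p of 0.992 in edgeR.

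*Mapt* measured 380.2, 447.4, 434.8 and 434.6 CPM in the *Neat1*-KO and 423.7, 435.7 and 444.5 CPM in the *Neat1*-WT libraries. Apart from the low KO 1, the libraries lay close together, and *Mapt* had the smallest coefficient of variation over the 7 libraries (5.31%) where *Nefl* had the largest (10.3%). Its log2 fold change was −0.035 (SE 0.071, 95% interval −0.19 to 0.12), with an adjusted p of 0.994 in edgeR. *Mapt* counts relative to *Map2* ran from 0.452 to 0.546 in the *Neat1*-KO and from 0.436 to 0.471 in the *Neat1*-WT libraries, with an exact permutation p of 0.229.

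*Tubb3* encodes the neuron-specific class III beta-tubulin, and *Tubb2a* a class II isotype that is abundant in neurons. Beta-tubulin isotypes differ most in their last codons, so the last 60 coding bases (stop codon included) are printed 5′ to 3′. *Tubb2b* is added as the close paralog of *Tubb2a*. Capitals mark the bases that differ from *Tubb2a* at the same distance from the stop codon, with no gaps allowed. The stretches lie at chr13:34074468-34074527 (minus strand) for *Tubb2a*, chr13:34127471-34127530 (minus strand) for *Tubb2b* and chr8:123421623-123421682 (plus strand) for *Tubb3*, all in mm10.
*Tubb2a*: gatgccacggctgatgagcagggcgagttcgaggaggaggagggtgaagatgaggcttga
*Tubb2b*: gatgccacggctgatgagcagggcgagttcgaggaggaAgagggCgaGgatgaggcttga
*Tubb3*: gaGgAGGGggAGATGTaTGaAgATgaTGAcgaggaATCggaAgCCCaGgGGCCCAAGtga

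Counted in this way from the stop codon, *Tubb2b* differs from *Tubb2a* at 3 bases and *Tubb3* at 35. *Tubb3* has 450 codons and *Tubb2a* 445, so the ends of these genes can be out of register. The 35 is therefore not a count of substitutions. Over the whole coding sequence *Tubb2a* and *Tubb2b* were 96.49% identical (1291 of 1338 bases), and *Tubb2a* and *Tubb3* 84.16%. The authors counted uniquely mapped reads, so reads that map equally well to *Tubb2a* and *Tubb2b* would be left out of both counts. The level of *Tubb2a* is uncertain in that respect. *Tubb2b* itself had a log2 fold change of 0.0028 (SE 0.091).

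*Tubb3* measured 651.8, 510.1, 532.2 and 526.5 CPM in the *Neat1*-KO and 611.0, 538.0 and 563.8 CPM in the *Neat1*-WT libraries. KO 1 was the highest of all libraries and stood apart from the other *Neat1*-KO libraries, which lay below every *Neat1*-WT library. Its log2 fold change was −0.041 (SE 0.089, 95% interval −0.23 to 0.15), with an adjusted p of 0.994 in edgeR. *Tubb2a* measured 318.0, 275.6, 278.1 and 295.4 CPM in the *Neat1*-KO and 307.1, 307.8 and 274.3 CPM in the *Neat1*-WT libraries, again with KO 1 highest. Its log2 fold change was −0.023 (SE 0.074, 95% interval −0.18 to 0.14), with an adjusted p of 0.996 in edgeR. The ratio of *Tubb2a* to *Tubb3* counts overlapped between the genotypes (0.488 to 0.561 and 0.487 to 0.572), with an exact permutation p of 0.771.

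**Figure D2:**
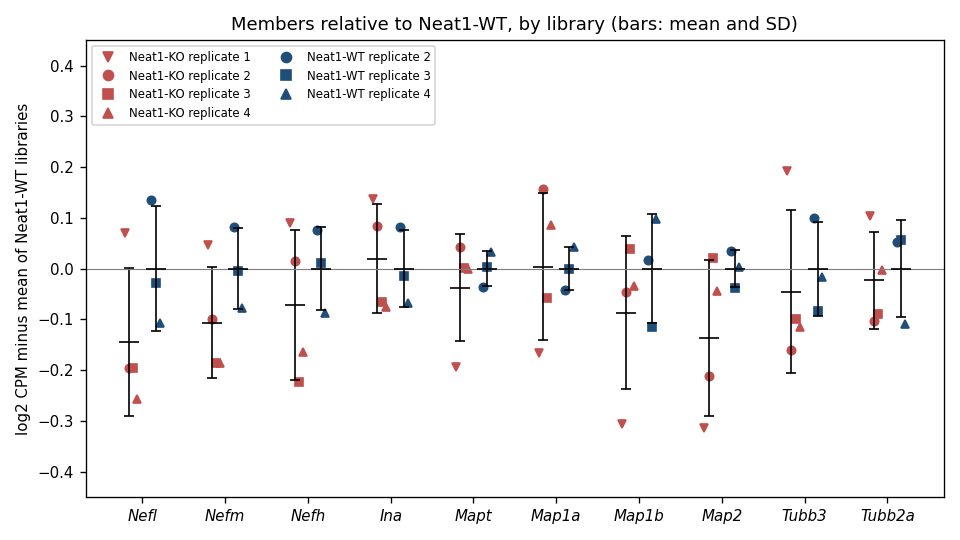
log2 CPM of each gene in each library minus the mean of the 3 *Neat1*-WT libraries (red, 4 *Neat1*-KO libraries; blue, 3 *Neat1*-WT libraries; black bars, mean and SD). No gene separates the genotypes, and KO 1 (downward triangle) is the highest library for *Nefh*, *Ina*, *Tubb3* and *Tubb2a* and the lowest for *Mapt*, *Map1a*, *Map1b* and *Map2*.

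**Figure D3:**
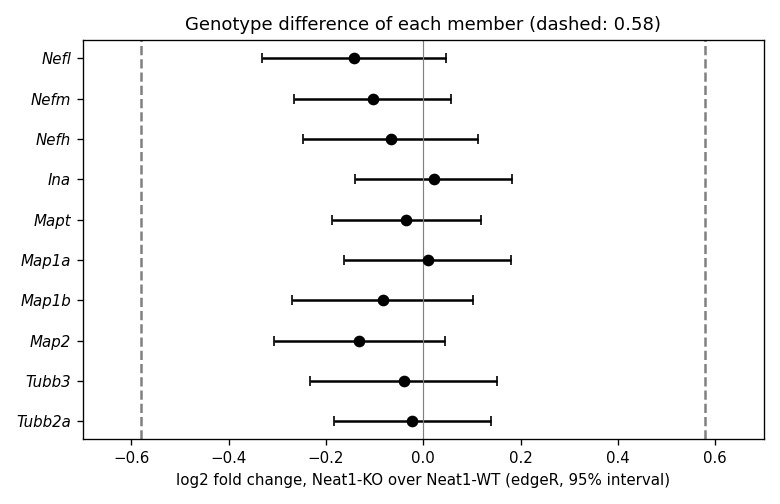
log2 fold change of each gene, *Neat1*-KO over *Neat1*-WT, with its 95% interval from edgeR. All intervals include 0 and lie within the dashed lines at 0.58 in either direction, and the lowest bound is −0.33 for *Nefl*.

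The genes did not vary as 1 block between the mice. KO 1 and WT 2, of opposite genotype, were the highest pair of libraries for each gene of the neurofilament triplet, so the triplet differed more between mice of the same genotype than between the genotype means. KO 1 was at the same time the lowest of the 7 libraries for the 4 microtubule-associated proteins. Its deviation from the mean of the 7 libraries was 0.15 for *Nefl* and −0.26 for *Map1b* on the log2 scale.

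The libraries also differed in the balance of short and long transcripts. Among protein-coding genes outside the 10 with a mean of at least 10 CPM, the 964 with under 2 kb of exon lay 0.196 above their 7-library mean in KO 1 (median log2 deviation), the 4193 with 4 to 8 kb at −0.00547 and the 2295 with 8 kb or more at −0.109. For the shortest and the longest class the values were −0.114 and 0.0771 in WT 4 and −0.102 and 0.0758 in KO 3. In WT 2, the other library high in the triplet, they were 0.018 and −0.0056, close to 0. *Map1a*, *Map1b* and *Map2* have 12166, 15846 and 16449 exonic bases and *Mapt* 7531, whereas the neurofilament and tubulin genes have between 1610 and 5782 exonic bases. These length classes were examined after seeing the pattern of KO 1. By union exon length *Mapt* and *Nefm* belong to the class of 4 to 8 kb, whose median lay near 0 in KO 1. There *Mapt* deviated by −0.17 and *Nefm* by 0.11. The 5782 exonic bases of *Nefm* are the union of 2 annotated transcripts, and its coding sequence has 2547 bases. The class of 2 to 4 kb had a median of 0.0821 in KO 1. The part of transcript length in the levels of the 10 genes was not tested.

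Summed markers of several other cell types were lowest in the libraries with the most triplet RNA, whereas those of oligodendrocytes and blood were not. The summed level of 4 Schwann cell markers (*Prx*, *Ncmap*, *Egr2* and *Pmp2*) was 6.27, 56.0, 28.9 and 43.5 CPM in KO 1 to 4 and 6.47, 12.4 and 48.8 CPM in WT 2 to 4. KO 1 and WT 2, the libraries with the most triplet RNA, had the least Schwann cell RNA. Of the 4 markers, *Pmp2* had at most 3 counts in every library. The summed level of 6 meningeal markers was likewise lowest in KO 1 and WT 2, at 73.8 and 66.4 CPM, and between 104.1 and 197.1 CPM in the other libraries. The same held for the sum of 6 microglial markers, with 125 CPM in KO 1 and 127.5 CPM in WT 2 against 157.9 to 192.8 CPM elsewhere. It also held for the sum of 6 astrocytic markers, with 4889 and 5294 CPM against 5413 to 6463 CPM. Single markers did not all follow their sum. Of the astrocytic markers, only *Gfap* and *Slc1a3* were lowest in KO 1 and WT 2. *Gja1* was 359.9 and 360.2 CPM there, above 330.5 CPM in KO 4. The microglial marker *Aif1* was highest in KO 1, at 5.497 CPM. The 7 oligodendrocyte markers were lowest in KO 4, at 33490 CPM, with 34380 CPM in KO 1 and 34890 CPM in WT 2. The 5 blood markers were lowest in KO 3, at 5.8 CPM. The 8 neuronal markers were highest in KO 1 and WT 2, at 5623 and 5542 CPM, and between 5090 and 5386 CPM elsewhere. None of these lists held a called gene, and the part of these cell types in the levels of the 10 genes was not tested.

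With the log2 sum of the Schwann cell markers as a covariate, an alternative chosen after seeing the data, the log2 fold change of *Nefl* was −0.0815 and that of *Nefm* −0.0639. In the 5 libraries without KO 1 and WT 2, likewise chosen after seeing the data, they were −0.15 and −0.116. There *Nefl*, *Nefm* and *Tubb3* lay lower in all *Neat1*-KO than in all *Neat1*-WT libraries, as 17.8% of all genes separated in either direction with so few libraries. KO 1 had been the only *Neat1*-KO library that overlapped for these genes, so leaving it out fixed this outcome in advance. Their exact permutation p were 0.1, 0.2 and 0.1, where the smallest possible is 0.1. No gene of the 10 was called in either fit.

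**Figure D4:**
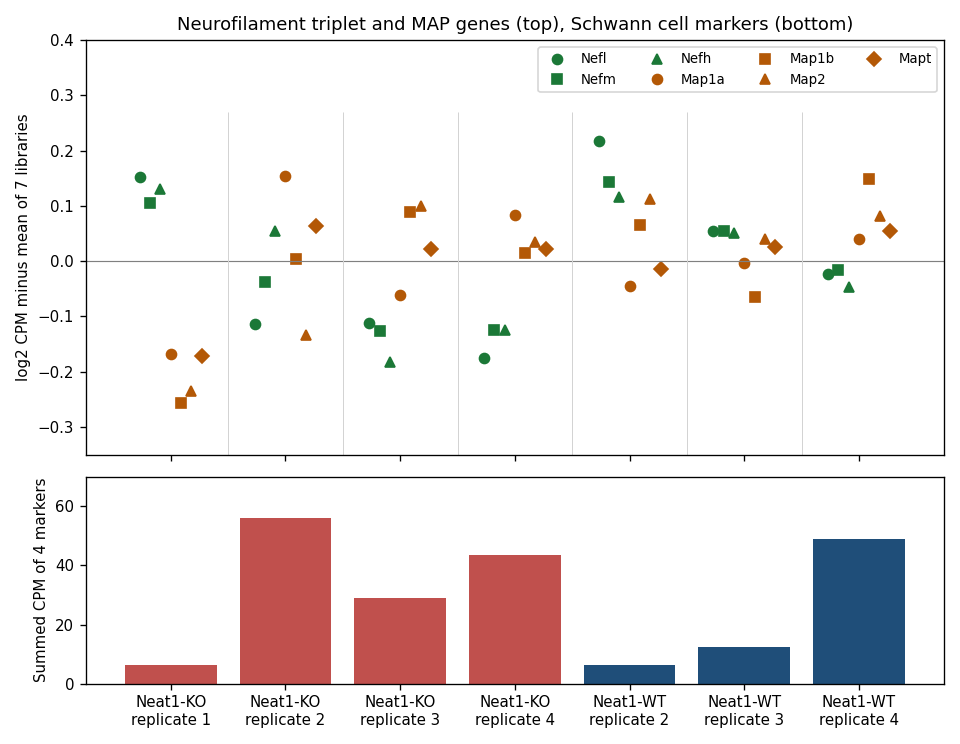
Top, log2 CPM of the neurofilament triplet (green) and the microtubule-associated protein genes (brown) in each library minus the mean of the 7 libraries. Bottom, summed CPM of the 4 Schwann cell markers in the same libraries, lowest in KO 1 (6.27 CPM) and WT 2 (6.47 CPM), where the triplet was highest.

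Motor neurons are rich in neurofilament, and their markers were measured beside the triplet. The summed level of *Chat*, *Slc5a7*, *Slc18a3*, *Mnx1*, *Isl1* and *Ache* was 480.1, 423.5, 464.9 and 462.3 CPM in KO 1 to 4 and 553.6, 476.8 and 500.4 CPM in WT 2 to 4. KO 1 overlapped WT 3, and the other *Neat1*-KO libraries lay below all *Neat1*-WT libraries, as for *Nefl*, *Nefm* and *Tubb3*. Of the 6 genes 5 had a log2 fold change below 0, with a median of −0.215, and 0 were called in edgeR (smallest adjusted p 0.840, with *Slc5a7* and *Slc18a3* at an unadjusted p of 0.0127 and 0.00533). Sensory ganglion neurons, which also carry much neurofilament, could enter through dorsal roots. Their 8 markers summed to between 42.3 and 56.1 CPM in the *Neat1*-KO and between 52.3 and 79.7 CPM in the *Neat1*-WT libraries. Most of this sum was *Calca* alone, with 39.45 of 49.52 CPM in KO 1 and 69.39 of 79.71 CPM in WT 2. *Scn10a*, *Scn11a*, *Trpv1* and *Mrgprd* were too low to be tested, and *Mrgprd* had at most 3 counts in every library. The sum is therefore a weak measure of sensory ganglion RNA. The part of either cell type in the levels of the 10 genes was not tested.

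The other genes of the axonal cytoskeleton were examined as 7 lists with 95 genes tested. Of these, 0 were called by edgeR, DESeq2 or limma-voom and 5 had an unadjusted p under 0.05 in edgeR, beside 4.64% of all genes. By direction, 47 had a log2 fold change below 0 and 48 above, and the median was 0.0028. For 7 of the 95 genes the genotypes separated, 6 of them lower and 1 higher in the *Neat1*-KO libraries, beside 5.47% of all genes tested (2.57% lower and 2.91% higher). By list, the fold change was below 0 for 4 of 6 neuronal filament partners, 7 of 12 other tubulins, 14 of 26 other microtubule-binding proteins, 4 of 14 axonal motors, 9 of 20 genes of tubulin folding, modification and severing, 4 of 10 neurofilament and tau kinases and 5 of 7 genes of the axonal spectrin and ankyrin lattice. The medians of the lists ran from −0.053 for the filament partners to 0.029 for the motors.

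*Prph* encodes peripherin, the filament subunit shared by motor and sensory neurons with peripheral axons. It measured between 81.1 and 99.4 CPM in the *Neat1*-KO and between 90.1 and 112.2 CPM in the *Neat1*-WT libraries, with a log2 fold change of −0.20 (SE 0.094) and an adjusted p of 0.992 in edgeR. Peripherin thus had a larger fold change than any of the 10 genes, with overlapping libraries. *Trim2*, a ubiquitin ligase that acts on the light neurofilament subunit, had −0.13 (SE 0.071). Of the tubulins, *Tubg2* (gamma-tubulin) had 0.11 (SE 0.096) and *Tuba1b* (an alpha-tubulin) −0.083 (SE 0.081).

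*Kif5b*, a heavy chain of conventional kinesin, had the smallest p of the 95 genes. It measured 578.6, 559.5, 625.5 and 548.0 CPM in the *Neat1*-KO and 735.1, 700.3 and 659.5 CPM in the *Neat1*-WT libraries. Every *Neat1*-KO library lay below every *Neat1*-WT library, with a log2 fold change of −0.27 (SE 0.070) and an adjusted p of 0.704 in edgeR, so it was not called. Over 17 alternatives its adjusted p ran from 0.0752 to 1, and it fell below 0.1 by DESeq2 (0.0752) and in edgeR with no filter on low counts (0.0837), where the fold change was still too small for a call. Its neuronal relative *Kif5a*, the kinesin that carries neurofilaments and is mutated in some ALS, measured 1554, 1716, 1599 and 1615 CPM and 1984, 2073 and 1569 CPM. WT 4 lay within the *Neat1*-KO range, and the log2 fold change was −0.21 (SE 0.089, adjusted p 0.992 in edgeR).

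The remaining genes with the smallest p in their lists did not pass either, each with an adjusted p of 0.992 in edgeR. *Dpysl3*, a collapsin response mediator that binds tubulin, had a log2 fold change of −0.19 (SE 0.070). All its *Neat1*-KO libraries (112.6 to 122.5 CPM) lay below all *Neat1*-WT libraries (127.1 to 141.4 CPM). *Camsap3*, which holds microtubule minus ends, had 0.20 (SE 0.10). *Sptan1*, the alpha-spectrin of the axonal membrane skeleton, had 0.17 (SE 0.070), with all *Neat1*-KO libraries (860.8 to 986.7 CPM) above all *Neat1*-WT libraries (806.1 to 839.1 CPM). *Ank3*, which encodes ankyrin G of the axon initial segment, had −0.087 (SE 0.078). *Vash1*, a tubulin carboxypeptidase, had −0.16 (SE 0.080), with all *Neat1*-KO libraries (45.6 to 52.7 CPM) below all *Neat1*-WT libraries (53.3 to 57.7 CPM). *Tbcd*, a tubulin folding cofactor, had 0.15 (SE 0.084). The kinases *Mark4* and *Mapk8* had 0.15 (SE 0.088) and −0.12 (SE 0.091).

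**Figure D5:**
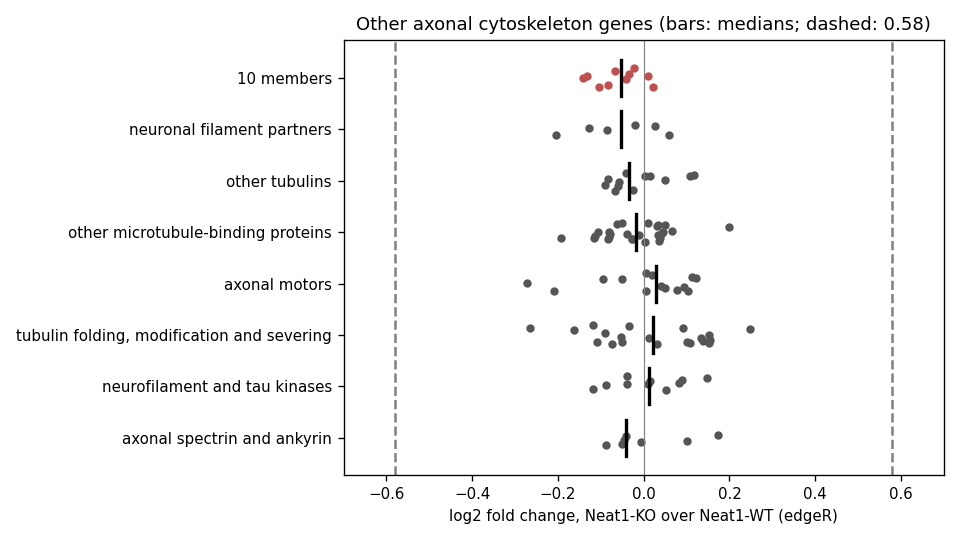
log2 fold change (edgeR, *Neat1*-KO over *Neat1*-WT) of the 10 genes (red) and of the 95 other axonal cytoskeleton genes by list (grey), with the median of each list as a black bar and the study's threshold of 0.58 as dashed lines. All points lie within the dashed lines, from −0.27 for *Kif5b* to 0.25 in the tubulin modification list.

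As a description of covariation, tested genes with a mean of at least 10 CPM (10898 genes outside the 10) were ranked by Pearson r over the 7 libraries. Most like the mean standardised log2 CPM of the triplet were *Tuba1b* (r = 0.994), *Prkcz* (0.982), *Atg5* (0.982), *Kcnj14* (0.973) and *Ube2d2a* (0.972). For the other 7 genes together they were *B3galt5* (0.984), *Klf9* (0.979), *Wdr33* (0.973), *Zfp804a* (0.957) and *Morc3* (0.946). The genes were picked as the highest of the 10898, and the libraries share the differences in transcript length and in Schwann cell markers given above.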

How the data were processed

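RNA-seq counts of cervical spinal cords from 4 *Neat1*-KO; hSOD1G93A and 3 *Neat1*-WT; hSOD1G93A mice were used, grouped by the labels. The authors prepared poly(A) directional libraries, trimmed reads with Trimmomatic 0.38, aligned them to mm10 with HISAT2 2.1.0, counted unique reads per gene with featureCounts 1.6.3 and deposited raw counts. The annotation and strand setting of the counting are not given in the sources used here. GENCODE M21 (GRCm38, the same assembly as mm10) named 55227 of 55487 genes.

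Analyses used R 4.3.3, edgeR 4.0.16, limma 3.58.1, DESeq2 1.42.0, Python 3.11.15 and BLAST 2.17.0. The edgeR quasi-likelihood F-test followed filterByExpr and TMM (factors 0.991 to 1.008), with Benjamini-Hochberg adjustment over 18449 genes. Calls needed an adjusted p below 0.1 together with a log2 fold change beyond 0.58 in size. Single values had an exact permutation test over the 35 assignments of the libraries to genotypes. CPM are TMM-scaled, and CPM per kilobase used union exon lengths. The fit was tested on simulated data. Named genes were the 10 genes, *Neat1*, the 2 of smallest p in each list without calls, and the 5 most alike over libraries to the triplet and to the other 7 genes. Members and lists were chosen with earlier results of these data known. One marker gene is not reported here and entered no marker sum. Alternatives are given in the closing section. P-values measure the spread between these mice.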

Additional observations from a re-analysis of the deposited data

Results flagged for a closer look

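In 1 of 31 sets of 4 *Neat1*-KO values examined (levels of the 10 genes, 6 ratios, *Neat1* and the named cytoskeleton genes), a library lay far from the others. *Tubb3* in KO 1 was 651.8 CPM, above 532.2, 526.5 and 510.1 CPM in the other *Neat1*-KO libraries, and its gap to the nearest was 0.844 of the whole range. About 1 in 20 such sets, here 1.55, would be singled out by chance. Groups of 3 libraries were not examined.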

How the results depend on the processing

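The 10 genes were refitted under 17 alternatives. No gene was called in any, and the smallest adjusted p was 0.591. Of 170 fold changes 152 kept their direction and 18 changed sign, none of these larger than 0.0436. *Nefl*, *Nefm*, *Nefh*, *Map1b* and *Map2* stayed below 0 in all 17, though leaving out 1 library moved them by over 1.5 times: *Nefl* from −0.222 (without KO 1) to −0.073 (without WT 2), *Nefm* from −0.16 to −0.0628 (the same libraries), *Nefh* from −0.125 (without KO 1) to −0.018 (without KO 3), *Map1b* from −0.14 (without WT 3) to −0.0185 (without KO 1) and *Map2* from −0.186 (without KO 3) to −0.078 (without KO 1). With scaling to neuronal markers, which moved the median of all genes to −0.035, *Ina* (−0.0191) and *Map1a* (−0.0311) turned and all 10 were below 0. With the Schwann cell marker covariate *Map1a* (−0.0432), *Tubb2a* (0.0193) and *Tubb3* (0.00787) turned. The cause was not tested.

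Without KO 1 the libraries separated the genotypes for 3 genes, *Nefl*, *Nefm* and *Tubb3* (11.5% of all genes). Without KO 3 they did for *Map2* (14.4%), and with neuronal scaling for *Nefm* (5.82%). In both omissions the library left out was the only *Neat1*-KO library that overlapped for these genes, so the separation was fixed in advance. The range over single libraries left out was 0 to 3, and the 5 libraries without KO 1 and WT 2 gave 3. Over the same omissions *Ina* ran from −0.0214 (without KO 1) to 0.0627 (without WT 2), *Map1a* from −0.0436 (without KO 2) to 0.0608 (without KO 1), *Mapt* from −0.0616 to 0.0118 (without KO 1), *Tubb2a* from −0.0775 to 0.00446 (without WT 3), *Tubb3* from −0.13 to 0.0105 (without WT 2) and the log2 ratio of *Tubb2a* to *Tubb3* from −0.024 (without WT 4) to 0.0927. Signs also turned for *Ina* without KO 2 or WT 4, *Map1a* without KO 4 or WT 2, *Tubb2a* without KO 2 or WT 2, and that ratio without KO 4 or WT 2. Over all genes, 6 were called in the reported fit, 124 with no filter on low counts, 27 by DESeq2, 19 in the 5 libraries, and 3 (without WT 3) to 31 (without KO 1) when a library was left out, with 11 without WT 4.

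The labels number the replicates, but same-numbered libraries did not deviate together (r −0.33, −0.324 and −0.0262 over 10908 genes). Pairs with different numbers ran from −0.478 (KO 1 with WT 4) to 0.397 (KO 1 with WT 2), a range that includes these values. With the replicate block 39 genes were called over all, none of the 10, and *Ina* (−0.0191) and *Mapt* (0.0144) turned. KO 1 has no *Neat1*-WT library of the same number, so in this fit it adds nothing to the genotype difference. Leaving KO 1 out gave similar values (*Ina* −0.0214, *Mapt* 0.0118), so the shift cannot be read as that of a replicate batch. With 4 and 3 libraries, the permutation test cannot go below 0.0286, and the 95% intervals of the 10 genes reach 0.153 to 0.192 (log2) to either side of the estimate.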
